A study of Mus musculus with 34 samples.

Results

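The genes of the proteasome were described in brains of aged mice that lack the deacetylase HDAC1, carry a model of Alzheimer's disease, or both. The members were all genes in the deposited tables whose symbol starts with Psma, Psmb, Psmc or Psmd and a digit, with Psmb8 left out, which gave 39 of 23951 genes. Hippocampal RNA-seq covered 4 mice with the control genotype, 5 with the Hdac1 deletion (Hdac1 cKO), 6 with the 5XFAD transgenes and 5 with both (compound mice, Hdac1 cKO; 5XFAD). Cortical nuclei sorted for GFAP, an astrocyte protein, gave 3 control libraries and 4 Hdac1 cKO libraries. Control and Hdac1 cKO mice of the hippocampal series were 13 to 14 months old, and all other groups were 13 months old.

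All groups carried the floxed Hdac1f/f alleles, so the control animals were floxed mice without Cre. Hdac1 cKO mice had Nestin-Cre in addition, which deletes the gene in neurons and astrocytes, while microglia keep HDAC1. 5XFAD mice were Hdac1f/f with the 5XFAD transgenes, a model of familial Alzheimer's disease driven by the Thy1 promoter, and compound mice had Hdac1f/f, Nestin-Cre and 5XFAD together. In the nuclei series the genotypes were Hdac1f/f and Hdac1f/f with Nestin-Cre. The hippocampal libraries were whole tissue, where fewer cells of a type and less RNA per cell cannot be told apart.

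The proteasome is the chamber in which cells degrade proteins tagged with ubiquitin. Its core particle is a stack of rings, with outer rings of alpha subunits (Psma genes) that gate the entrance and inner rings of beta subunits (Psmb genes), of which Psmb5, Psmb6 and Psmb7 encode the cutting sites. The regulatory particle has a base with a ring of ATPases (Psmc genes) that unfold the substrate and a lid (Psmd genes) that recognises it and removes its ubiquitin. Under interferon, cells exchange the cutting subunits for those of the immunoproteasome, among them Psmb9 in place of Psmb6 and Psmb10 in place of Psmb7, which in the brain is best known from microglia.

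By role the 39 members comprised 14 standard core subunits (7 alpha and 7 beta), 17 standard regulatory subunits (6 ATPases, 3 other base subunits and 8 lid subunits) and 2 immunoproteasome subunits, Psmb9 and Psmb10. They further comprised 2 tissue-specific core subunits, Psma8 of the testis and Psmb11 of the thymus, and 3 genes with a Psmd symbol that encode assembly chaperones, Psmd5, Psmd9 and Psmd10. The symbol rule also took in Psmc3ip, a meiotic recombination factor named for binding Psmc3 and not a subunit, and missed the small lid subunit Shfm1. The genes lay on 16 chromosomes of mm9, with 7 on chromosome 11. All 39 passed the filter on low values in every comparison.

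The promoters are shown for one pair, the standard subunit Psmb6 and its immunoproteasome counterpart Psmb9, because Psmb9 was the only member to pass both an unadjusted p of 0.05 and a fold of 1.5 in any comparison, and it is set beside Psmb6 in the results. Each line holds the 250 bases before the RefSeq start in GRCm38.p6, read 5′ to 3′ on the gene's own strand, chr11:70525107-70525356 on the plus strand for Psmb6 and chr17:34187331-34187580 on the minus strand for Psmb9. Capitals mark matches to the motifs searched on both strands.
Psmb6: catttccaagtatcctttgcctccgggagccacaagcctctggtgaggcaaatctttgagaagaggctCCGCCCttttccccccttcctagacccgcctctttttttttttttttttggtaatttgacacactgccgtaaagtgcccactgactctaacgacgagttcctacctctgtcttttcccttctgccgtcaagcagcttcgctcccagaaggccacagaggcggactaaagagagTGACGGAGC
Psmb9: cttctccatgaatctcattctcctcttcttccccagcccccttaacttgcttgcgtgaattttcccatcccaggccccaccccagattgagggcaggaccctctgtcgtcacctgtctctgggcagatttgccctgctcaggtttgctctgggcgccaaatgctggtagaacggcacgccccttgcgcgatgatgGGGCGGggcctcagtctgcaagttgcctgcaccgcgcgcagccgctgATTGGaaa

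In the Psmb6 window the capitals are a GC box on the opposite strand, 182 to 177 bases before the start, and a match to the antioxidant response element core, the motif bound by NRF1 and NRF2, 9 to 1 bases before the start. In the Psmb9 window they are a GC box 55 to 50 bases before the start and a CCAAT box on the opposite strand 8 to 4 bases before it. RefSeq windows of 250 bases before to 50 after the start were found for 32 members. The antioxidant response element core (TGACNNNGC) was present in 5 of the 32 (15.6%), Psmb5, Psmb6, Psmc6, Psmd9 and Psmd12, against 14% of 27025 genes. The interferon-type gamma-activated site (TTCNNNGAA) was in 1 (3.12%), the base subunit gene Psmd2, against 9.55% of genes. CCAAT was in 14 members (43.8%) against 41.1%, and the GC box (GGGCGG) in 19 (59.4%) against 38.2%. These are letter matches in 1 window per start and say nothing about binding of a factor.

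The values are FPKM, fragments scaled to transcript length and to the mapped reads of a library, so they are levels per length. The hippocampal libraries covered the 3′ ends of transcripts, and their relative depth spanned 0.755 to 2.35. Within groups the libraries correlated with Pearson's r of 0.952 to 0.968 across genes in the hippocampus and 0.895 to 0.921 in the nuclei. Hdac1 itself was lower in Hdac1 cKO (2.36 to 3.03 FPKM) and compound hippocampus (1.15 to 2.52) than in control (5.91 to 10.7), without overlap, whereas in nuclei the ranges overlapped (9.91 to 22.3 in control, 5.80 to 11.5 in Hdac1 cKO). Summed astrocyte markers were 2757 to 3362 FPKM in the nuclei and 1149 to 1584 in the hippocampus, and summed neuron markers 184 to 272 against 1468 to 1867. Summed microglia markers were 66.5 to 198 FPKM in the nuclei and 378 to 2654 in the hippocampus. Oligodendrocyte markers remained at 450 to 1223 against 1008 to 1890, and endothelial markers were higher in the nuclei, 24.0 to 58.2 against 10.1 to 19.3. Thy1, whose promoter drives the transgenes, had a mean of 308 FPKM in control, 1801 in 5XFAD and 1892 in compound mice. Summed markers of the choroid plexus, a tissue that can be dissected along with the hippocampus, varied from 56.4 to 20346 FPKM between hippocampal libraries.

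In control hippocampus the core subunits stood above the regulatory subunits. The median of the mean FPKM was 248 over the 14 core subunits and 72.7 over the 17 regulatory subunits, a ratio of 3.41. The core transcripts are shorter, with a median longest transcript of 1101 bases against 1785, and a 3′ library does not gather more fragments from a longer transcript. When FPKM was multiplied back by length the ratio was 2.01, so the order held and the distance shrank.

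Among the alpha subunits the control means ran from 80.2 ± 8.93 FPKM (SD, n = 4) for Psma1 to 390 for Psma7. Among the beta subunits Psmb4 (408 ± 26.6), Psmb1 (395 ± 19.4) and Psmb5 (392 ± 15.3) were the highest, and with Psma7 they did not differ beyond their spread. Psmb5 carries the chymotrypsin-like site, and Psmb6, with the caspase-like site, followed at 323 ± 6.85 FPKM. Psmb7, which carries the trypsin-like site, was far below at 36.0 ± 7.34 FPKM, lower than every other standard core subunit.

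The regulatory subunits ran from Psmd3, a scaffold of the lid, at 17.5 ± 2.48 FPKM to Psmc3, an ATPase, at 189 ± 6.15 FPKM. The ubiquitin receptor Psmd4 was at 155 and the lid subunit Psmd7 at 146, and the deubiquitinase of the lid, Psmd14, at 72.7. Of the 3 chaperones, Psmd9 at 9.63 and Psmd5 at 6.56 FPKM were below every standard regulatory subunit, and Psmd10 at 22.1 FPKM was above Psmd3.

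Of the immunoproteasome subunits, Psmb10 was a well expressed gene at 61.6 ± 6.75 FPKM, above its standard counterpart Psmb7 in each of the 4 control mice (132% to 201% of it). This ratio divides by the low Psmb7 value. For Psmb7 the annotation lists a pseudogene, Psmb7-ps2, and an overlap with Nek6 on the opposite strand, and their part in its level was not tested. Psmb9 was at 3.57 ± 1.48 FPKM, 0.734% to 1.75% of its counterpart Psmb6. The tissue-specific Psma8 and Psmb11 were the lowest members, at 0.763 and 1.37 FPKM. Psma8 was listed at 0 in at least 1 mouse of the control, Hdac1 cKO and 5XFAD groups, and its spread was wide (CV 79.9% in control).

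Across all 20 hippocampal libraries the 31 standard subunits varied little. The ratio of the highest to the lowest library was 1.59 in the median, from 1.29 for the ATPase Psmc1 to 2.36 for Psmb2. Median CVs in control were 7.85% for the core and 7.75% for the regulatory subunits, and 14.3% and 10.2% in 5XFAD. The following comparisons were tested with limma on log2(FPKM + 1), with Benjamini-Hochberg adjustment over all genes tested. A second, looser call took a fold of at least 1.5 with an unadjusted p under 0.05.

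**Figure D1:**
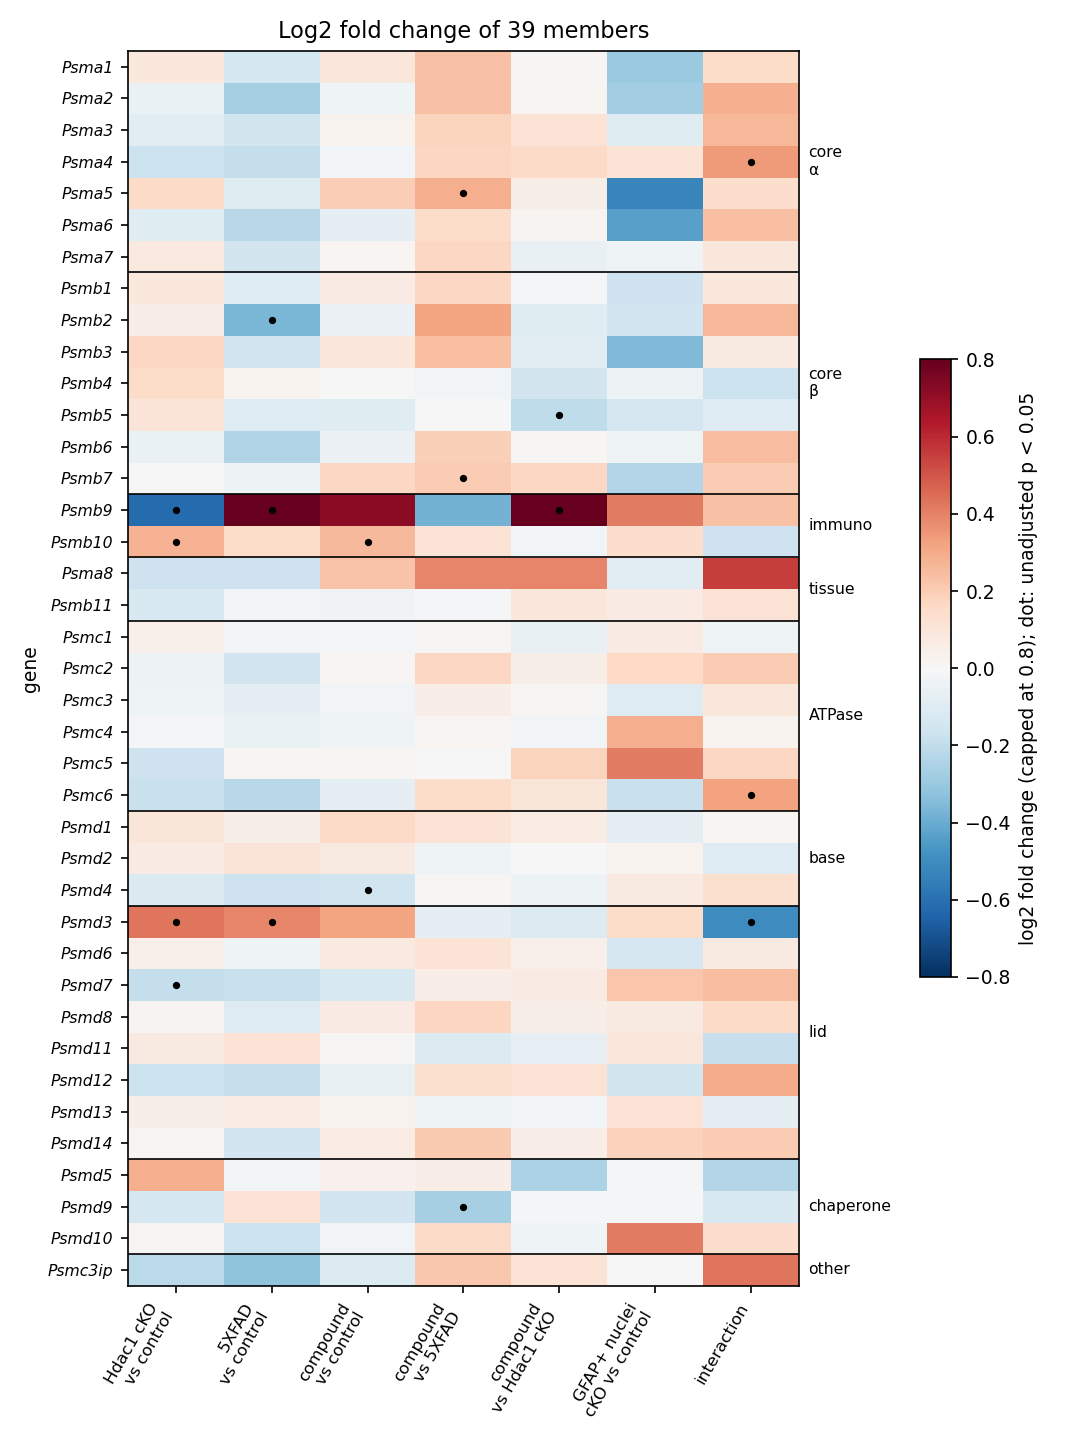
Log2 fold change (colour) of the 39 members (vertical axis, ordered by role) in the 7 comparisons (horizontal axis), with a dot at an unadjusted p under 0.05 and a colour scale that stops short of the highest Psmb9 values. Core and regulatory subunits are pale in most columns, and Psmb9 stands out.

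The comparison of Hdac1 cKO with control hippocampus asks what loss of HDAC1 did to these genes. None of the 39 members passed an adjusted p of 0.05 in limma, where 22 of 14265 genes (0.154%) did. At an unadjusted p under 0.05 there were 4 members, against 11.7% of all genes, with Psmb10 and Psmd3 higher and Psmb9 and Psmd7 lower. The looser call took 1 member, Psmb9, against 3.36% of genes, and 2 members, Psmd3 and Psmc5, did not overlap between the groups, against 4.23% of genes. The shares of members were thus near or below the background. The median log2 fold change was 0.07 over the core, 0.01 over the regulatory subunits and -0.00 over all genes. When leaving out 1 library, the core median ranged from 0.01 to 0.09 and the regulatory median from -0.04 to 0.05.

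Psmd3 (chr11:98543868-98557293, plus strand, mm9) was at 16.3, 16.9, 21.2 and 15.8 FPKM in the control mice and at 22.9, 25.7, 22.5, 25.8 and 22.3 FPKM in the Hdac1 cKO mice. Each Hdac1 cKO mouse was above each control mouse, although control 3 came close. This gave a log2 fold change of 0.43 (SE 0.11, 95% interval 0.20 to 0.66), and the limma adjusted p was 0.155. A two-sided exact permutation test gave p = 0.0159, the smallest that 4 against 5 mice allow.

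Psmc5, an ATPase of the base, was at 111, 108, 108 and 104 FPKM in control and at 87.5, 104, 104, 88.6 and 98.1 FPKM in Hdac1 cKO mice. The groups separated by a narrow gap, and the exact permutation p was again 0.0159. In limma the log2 fold change was -0.17 (SE 0.08) with an adjusted p of 0.442. Psmd7 had a log2 fold change of -0.19 (SE 0.08, limma adjusted p = 0.382), with overlapping groups.

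Psmb10 was at 60.9, 63.9, 68.8 and 52.7 FPKM in control and at 72.6, 86.1, 77.8, 67.0 and 71.1 FPKM in Hdac1 cKO mice. One Hdac1 cKO mouse lay below the highest control mouse. The log2 fold change was 0.28 (SE 0.10, limma adjusted p = 0.291, two-sided exact permutation p = 0.0317).

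Psmb9, the other immunoproteasome subunit, differed in the opposite direction. It was at 2.54, 2.32, 3.85 and 5.55 FPKM in control and at 2.37, 2.85, 2.27, 0.545 and 1.95 FPKM in Hdac1 cKO mice. The groups overlapped, and the lowest value came from a single Hdac1 cKO mouse. The log2 fold change was -0.62 (SE 0.28, 95% interval -1.22 to -0.01) with an adjusted p of 0.412 in limma and a two-sided exact permutation p of 0.0952. It fell out of the looser call without control 3 (-0.57), without control 4 (-0.43) and without Hdac1 cKO 3, 4 or 5 (-0.67, -0.40 and -0.63). With all libraries it also fell out of that call under a pseudocount of 0.1, no filter on low values, quantile normalization, limma without its trend and robust options, scaling to an equal sum and a fit of all 4 hippocampal groups. The log2 fold change under these settings was -0.89 to -0.57, with unadjusted limma p of 0.0528 to 0.104.

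Among the standard subunits the log2 fold changes ran from -0.17 (Psma4) to 0.17 (Psmb3) in the core and from -0.19 (Psmd7) to 0.43 (Psmd3) in the regulatory particle. When leaving out 1 library, Psma4 ranged from -0.21 to -0.11 and Psmb3 from 0.08 to 0.24. The cutting subunits Psmb5, Psmb6 and Psmb7 had values of 0.10, -0.05 and 0.00. For all 14 core and 16 of the 17 regulatory subunits the 95% interval lay within a 1.5-fold change either way, so larger changes are outside these intervals for every standard subunit but Psmd3. The choroid plexus markers were at 59.7 to 1626 FPKM in Hdac1 cKO and 586 to 20346 in control libraries, and their part in these differences was not tested.

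In 5XFAD against control hippocampus, which asks what the disease model did, most standard core subunits were lower in value but none passed the adjusted threshold, and Psmb9 was higher under the looser call. No member passed an adjusted p of 0.05 in limma, against 102 of 14402 genes (0.708%). Under other settings 1 member, Psmb9, did. An unadjusted p under 0.05 was reached by 3 members, Psmb9 and Psmd3 higher and Psmb2 lower, against 10.7% of genes. The looser call took 1 member, Psmb9, against 2.95% of genes, and no member separated the groups fully, against 2.9% of genes.

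Psmb9 (chr17:34318932-34324709, minus strand, mm9) was at 4.82 FPKM in the lowest, 9.05 in the median and 10.9 in the highest of the 6 5XFAD mice, against 2.32 to 5.55 in control. In 5 of the 6 5XFAD mice it was above every control mouse, and only 5XFAD 6 overlapped control 4. Its log2 fold change was 1.10 (SE 0.23, 95% interval 0.60 to 1.60), with a limma adjusted p of 0.0513 and a two-sided exact permutation p of 0.0190. Over 20 alternative settings the adjusted p ranged from 0.0134 to 0.2031, and in 7 of them it was under 0.05, among these the fits without control 4 and without 5XFAD 6. As a percentage of Psmb6, Psmb9 was 1.69% to 4.14% in 5XFAD, so the standard subunit remained far more abundant in transcripts.

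Summed markers of microglia and summed interferon-induced genes were also higher in the 5XFAD group. The summed level of 12 microglia markers was 1052 to 1421 FPKM in 5XFAD and 378 to 489 in control, with 12 of 12 higher and 8 passing an adjusted p of 0.05 in limma. The sum of 10 interferon-induced genes was 25.3 to 50.9 FPKM against 17.4 to 21.5, with 10 of 10 higher in value and 1 passing, Ifit3 (log2 fold change 1.28, adjusted p = 0.0192). Within the 5XFAD group the order of the mice differed from that of Psmb9. The highest interferon sum, in 5XFAD 1, came with Psmb9 at 7.33 FPKM. The lowest microglia sum, in 5XFAD 2, came with Psmb9 at 10.9 FPKM. The transporter gene Tap1, which overlaps Psmb9 on the opposite strand in the annotation, was at 2.14 to 4.15 FPKM in 5XFAD and 0.864 to 1.96 in control. Use of strand in counting is not given in the sources used here, so reads from the stretch that both genes share cannot be told apart. The astrocyte gene Gfap was also higher without overlap, with means of 97.5 FPKM in 5XFAD and 115 in compound mice against 25.1 in control. The part of the microglia, interferon and astrocyte genes in the Psmb9 difference was not tested.

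Psmb10 did not follow Psmb9. It was at 52.7 FPKM in the lowest, 68.7 in the median and 85.5 in the highest 5XFAD mouse, and the log2 fold change was 0.15 (SE 0.13, 95% interval -0.13 to 0.42, limma adjusted p = 0.715). Psmd3 was at 16.4, 23.7 and 29.4 FPKM in the lowest, median and highest 5XFAD mouse. All but one of these mice were above the highest control value of 21.2. Its log2 fold change was 0.39 (SE 0.15, limma adjusted p = 0.368, two-sided exact permutation p = 0.0381).

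Of the 14 core subunits 13 were lower in 5XFAD in value, including all 7 alpha subunits, with a median log2 fold change of -0.15, against 48.2% of all genes higher and a median of -0.01. Of the 17 regulatory subunits 11 were lower, with a median of -0.05 (-0.085 to -0.015 when leaving out 1 library). Subunits share the same libraries, so these counts are not independent. Psmb2, a beta subunit without a cutting site, had the lowest value, -0.36 (SE 0.16, 95% interval -0.70 to -0.02, limma adjusted p = 0.433, two-sided exact permutation p = 0.0857). It was at 124 FPKM in the lowest, 176 in the median and 262 in the highest 5XFAD mouse, against 255, 219, 225 and 218 in control, so that the highest mouse of both groups was a 5XFAD mouse. Psmb6 had a log2 fold change of -0.24, Psmb5 -0.10 and Psmb7 -0.04, and Psmb4 was the only core subunit higher in value, 0.03. The ATPase Psmc6 had the lowest value of the regulatory subunits, -0.22 (SE 0.13). Psmc2, Psma6 and Psmd12 were lower with two-sided exact permutation p of 0.0286, 0.0476 and 0.0476, each with overlapping groups.

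The core difference was smaller without 1 library, 5XFAD 1, and after quantile normalization. Over the 14 core subunits the mean log2(FPKM + 1) was 7.91, 7.72, 7.76 and 7.75 in control, and 7.31 in the lowest, 7.65 in the median and 7.87 in the highest 5XFAD mouse. 5XFAD 2 and 5, at 7.55 and 7.57, were also below every library of the other hippocampal groups, of which Hdac1 cKO 5 was lowest (7.67). The lowest, 5XFAD 1, held the lowest hippocampal value of 11 of the 14 core subunits and of 15 of the 31 standard subunits. Its FPKM summed to 725060, the lowest of all hippocampal libraries (725060 to 881139), and its mean over 84 ribosomal protein genes, another set of short and abundant transcripts, was also the lowest, 9.35 against 9.45 to 9.68 in the others. Without this library the core median was -0.07, and after quantile normalization it was -0.06, with the median of all genes at -0.00 and 0.00. Scaling every library to an equal sum moved all genes alike, to a core median of -0.07 beside 0.06 for all genes, and so left the distance of the core from all genes much as it was. What sets these library differences was not tested.

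**Figure D2:**
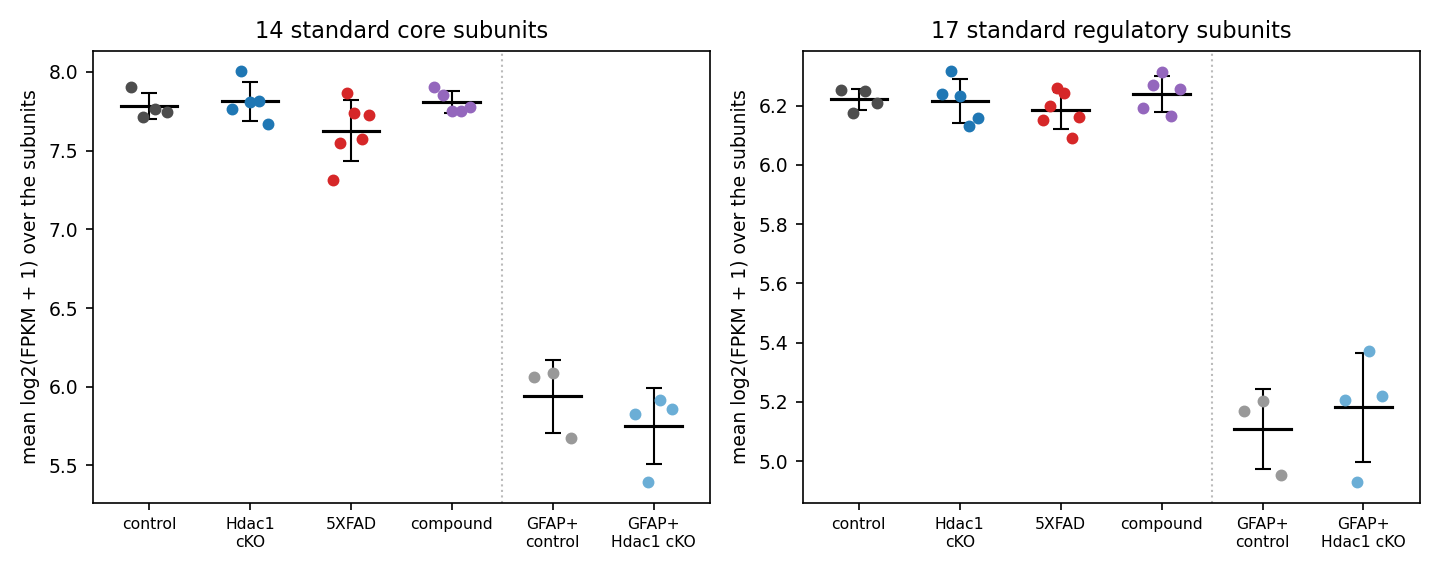
Mean log2(FPKM + 1) over the 14 standard core subunits (left) and the 17 standard regulatory subunits (right) in each library (points) of the 6 groups, with group mean and SD (bars); the vertical axes do not start at 0 and differ between panels. Among the hippocampal libraries in the left panel 5XFAD 1 is the lowest, at 7.31. 5XFAD 2 and 5, at 7.55 and 7.57, are also below every library of the other hippocampal groups. The nuclei lie lower in both panels.

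**Figure D3:**
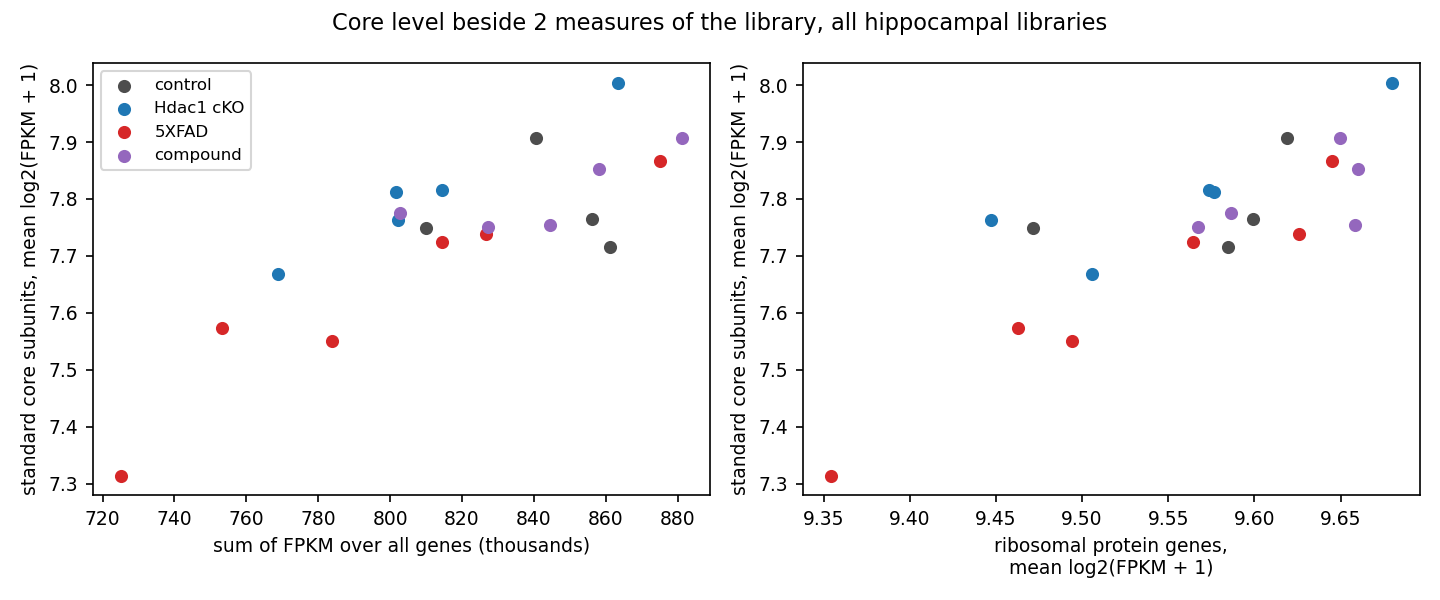
Mean log2(FPKM + 1) of the 14 core subunits (vertical axes) against the sum of FPKM over all genes (left, in units of 1000 FPKM) and the mean log2(FPKM + 1) of 84 ribosomal protein genes (right) in the 20 hippocampal libraries, coloured by group. The library with the lowest core value, 7.31, is also the lowest on both horizontal axes.

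In compound mice against control, the median log2 fold changes of core and regulatory subunits were 0.01 each, with -0.01 over all genes. Single subunits went both ways. No member passed an adjusted p of 0.05 in limma, against 95 of 14348 genes (0.662%). With an unadjusted p under 0.05 there were 2 members, Psmb10 higher and Psmd4 lower, against 10.5% of genes, the looser call took 0 members, against 4.24%, and 0 members separated the groups, against 4.27%. The 95% intervals of all 14 core and 16 of 17 regulatory subunits lay within 1.5-fold.

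Psmb9 took separate levels among the compound mice, at 11.2, 10.3, 2.70, 9.08 and 2.82 FPKM. Compound 1, 2 and 4 were above every control mouse, and compound 3 and 5 were within the control range. Over all 5 compound mice the log2 fold change was 0.72 (SE 0.41, 95% interval -0.20 to 1.63, limma adjusted p = 0.589). It was 0.96 without compound 3 and 0.95 without compound 5, and then met the looser call. The microglia markers were high in all compound mice (1312 to 2654 FPKM), including both with low Psmb9, while the interferon sum was 20.1 in compound 5, within the control range, and 30.0 in compound 3, above it. Tap1 was at 0.604, 1.45, 0.459, 3.50 and 1.77 FPKM in compound 1 to 5, so that only compound 4 was above the control range, and its log2 fold change against control was -0.12 (SE 0.31). Psmb9 was 0.850% to 3.43% of Psmb6 in these mice.

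Psmb10 was at 68.2, 82.3, 74.4, 82.7 and 62.4 FPKM in the compound mice, with a log2 fold change of 0.26 (SE 0.11, limma adjusted p = 0.429). Psmd3 was at 16.6, 24.4, 20.3, 22.3 and 27.7 FPKM, 3 of the 5 above all controls, with a log2 fold change of 0.32 (SE 0.15, limma adjusted p = 0.482). Set side by side, the log2 fold changes of Psmd3 against the same 4 control mice were 0.43, 0.39 and 0.32 in Hdac1 cKO, 5XFAD and compound mice, and these comparisons share their controls. Psmd4 was at 136, 150, 137, 144 and 130 FPKM against 157, 146, 160 and 158 in control, with overlap, and its log2 fold change was -0.16 (SE 0.07, limma adjusted p = 0.459).

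**Figure D4:**
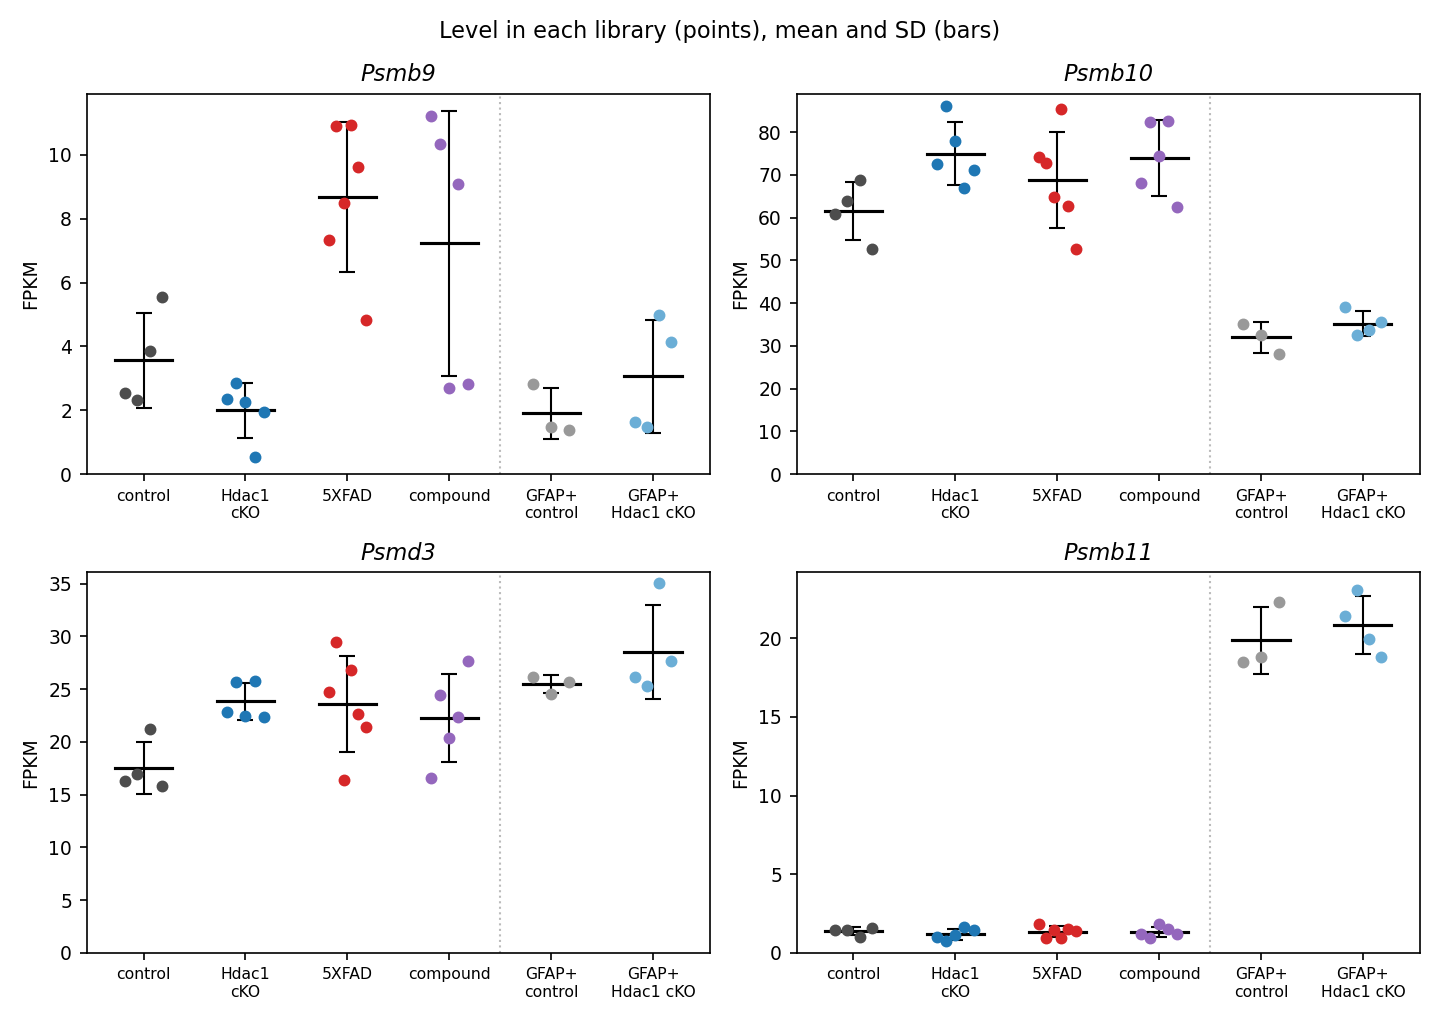
FPKM (vertical axes, from 0) of Psmb9, Psmb10, Psmd3 and Psmb11 in each library (points) of the 6 groups, with group mean and SD (bars). Psmb9 is highest in 5XFAD and in 3 of the 5 compound mice, and Psmb11 is at 18.5 FPKM or more in every nuclei library and below 2 FPKM in the hippocampus.

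Compound against 5XFAD mice shows what loss of HDAC1 did on the disease background. No member passed an adjusted p of 0.05 in limma, and 1 of 14326 genes did (0.00698%). At an unadjusted p under 0.05 there were 3 members, Psma5 and Psmb7 higher and the chaperone Psmd9 lower, against 6.61% of genes. The looser call took 0 members, against 1.28%, and Psma5 alone separated the groups, against 0.607% of genes. The alpha subunit Psma5 was at 79.8 FPKM in the lowest, 105 in the median and 114 in the highest 5XFAD mouse, and at 127, 128, 124, 119 and 124 in the compound mice. The compound values were close together and all above the highest 5XFAD mouse. The log2 fold change was 0.29 (SE 0.09, limma adjusted p = 0.711, two-sided exact permutation p = 0.00433, the smallest 5 against 6 mice allow).

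Psmb7 had a log2 fold change of 0.20 (SE 0.09) and Psmd9 of -0.27 (SE 0.12), with adjusted p of 0.740 and 0.736 in limma. Of the core subunits 13 of 14 were higher in value in compound mice, with a median of 0.19, and 12 of 17 regulatory subunits, with a median of 0.05. These subunits share the same libraries, so the counts are not independent. The median over all genes was -0.00. With libraries scaled to an equal sum the core median was 0.10 and that of all genes -0.07, so the core stood above all genes by nearly as much. The regulatory median turned to -0.04 after quantile normalization, where that of all genes was -0.00. The low 5XFAD 1 library enters this comparison as well. When leaving out 1 library, the core median ranged from 0.127 to 0.243 and the regulatory median from 0.00194 to 0.0886. Psmb9 had a log2 fold change of -0.38 (SE 0.35, 95% interval -1.14 to 0.38), and of -0.14 without compound 3 and -0.15 without compound 5, the mice with the lowest Psmb9, or -0.57 without compound 1.

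Compound against Hdac1 cKO mice shows the disease transgenes on the Hdac1 cKO background. No member passed an adjusted p of 0.05 in limma, against 211 of 14195 genes (1.49%). At an unadjusted p under 0.05 there were 2 members, Psmb9 higher and Psmb5 lower, against 10.3% of genes. The looser call took 1 member, Psmb9, against 3.55%, and 0 members separated the groups, against 3.34% of genes. Psmb9 had a log2 fold change of 1.33 (SE 0.39, 95% interval 0.47 to 2.20, limma adjusted p = 0.180, two-sided exact permutation p = 0.0238). Compound 1, 2 and 4 were above every Hdac1 cKO mouse, and compound 3 and 5 were within their range. The summed microglia markers were at 407 to 484 FPKM in Hdac1 cKO and 1312 to 2654 in compound mice, and they were high in compound 3 and 5 too (1312 and 1402). Psmb5 was at 395, 498, 418, 421 and 386 FPKM in Hdac1 cKO and at 351, 367, 336, 370 and 411 FPKM in compound mice. The groups overlapped in compound 5, and the log2 fold change was -0.20 (SE 0.08, limma adjusted p = 0.390). The medians were 0.01 for the core and 0.04 for the regulatory subunits.

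The labels give control and Hdac1 cKO libraries one protocol text and 5XFAD and compound libraries another. Whether the libraries were made together is not given in the sources used here, so for comparisons across these pairs the library set and the transgenes cannot be told apart.

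The interaction asks whether Hdac1 loss acted differently with and without the 5XFAD transgenes. No gene of 14389 passed an adjusted p of 0.05 in limma (0%), and so none of the members did. Members with an unadjusted p under 0.05 were Psma4 and Psmc6 higher and Psmd3 lower (3 members, against 8.97% of genes), and the looser call took 0 members, against 4.07%. The value for Psmd3 was -0.50 (SE 0.20, 95% interval -0.91 to -0.09, limma adjusted p = 0.470), since Hdac1 cKO mice were above control and compound mice were near 5XFAD mice. The value for Psmb9 was 0.24 (SE 0.49, 95% interval -0.78 to 1.26), an interval too wide to show a difference of 1.5-fold or its absence, and it ran from 0.01 without Hdac1 cKO 4 to 0.48 without compound 3.

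In GFAP+ nuclei, which were sorted for an astrocyte protein but also held markers of other cell types, Hdac1 cKO was compared with control in 4 against 3 samples. No member passed an adjusted p of 0.05 in limma or an unadjusted p under 0.05, where 2 of 15070 genes (0.0133%) and 4.7% of genes did. The looser call took 0 members, against 2.58% of genes. Psmd7 alone separated the groups, against 5.72% of genes, at 56.6, 60.2 and 60.6 FPKM in control and 73.7, 67.7, 67.0 and 68.2 FPKM in Hdac1 cKO nuclei. The log2 fold change was 0.22 (SE 0.12, limma adjusted p = 0.984), and the two-sided exact permutation p was 0.0571, the smallest this design allows, so no single gene could reach 0.05.

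The core had a median log2 fold change of -0.16 in these nuclei and the regulatory subunits of 0.07, against -0.01 for all genes. Single libraries moved both medians. The core median was -0.32 without control 4, -0.26 without Hdac1 cKO 3 and -0.09 without control 3 or Hdac1 cKO 2. The regulatory median was 0.12 without control 3, 0.19 without Hdac1 cKO 2, 0.03 without Hdac1 cKO 3 and 0.02 without control 4 or Hdac1 cKO 4. In value 13 of 14 core subunits were lower and 12 of 17 regulatory subunits higher, counts over genes that share the same libraries and so are not independent. Psma5 had the lowest value, -0.53 (SE 0.26), and was at 39.4, 35.5 and 23.1 FPKM in control and 24.2, 13.9, 21.8 and 30.4 FPKM in Hdac1 cKO nuclei, with overlap. Without Hdac1 cKO 2, the lowest of these, the value was -0.33. Psmc5 had the highest of the standard subunits, 0.41 (SE 0.19), at 74.2, 56.2 and 46.1 against 90.7, 62.5, 81.2 and 76.8 FPKM, also with overlap, and 0.25 without control 4. Per sample, the regulatory mean minus the core mean on the log2 scale was -0.89, -0.88 and -0.72 in control and -0.62, -0.47, -0.55 and -0.64 in Hdac1 cKO nuclei. The groups did not overlap in this difference, which was computed after the medians were seen and carries no test.

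Precision in the nuclei was lower, and only 6 of 14 core and 10 of 17 regulatory subunits had a 95% interval within 1.5-fold. Hdac1 itself had a log2 fold change of -0.70 (SE 0.28, limma adjusted p = 0.984) in these samples, so the comparison rests on a partial difference in the targeted transcript. Psmb9 was at 2.83, 1.49 and 1.40 FPKM in control and 1.64, 1.47, 4.98 and 4.15 FPKM in Hdac1 cKO nuclei, a log2 fold change of 0.41 (SE 0.36). It was 0.62 without control 1, 0.19 without Hdac1 cKO 3 and 0.26 without Hdac1 cKO 4.

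The levels in control nuclei and control hippocampus were set side by side without a test, because brain region, nuclei against tissue and library method differ together and cannot be told apart. The core median was 57.6 FPKM in nuclei and the regulatory median 31.2, so the core stood higher there too. The ratio of nuclei to hippocampus was 0.251 in the median for core subunits, from 0.115 (Psmb4) to 1.09 (Psma3), and 0.386 for regulatory subunits, from 0.195 (Psmc1) to 1.45 (Psmd3). Across the 31 standard subunits Spearman's rho was 0.655, a description over genes that share the same libraries.

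Psma3 was the highest member in nuclei, at 244, 223 and 239 FPKM in control, while the next highest, Psmb3, had a mean of 96.6 FPKM. It was the only one of the 14 standard core subunits with a higher value in nuclei than in hippocampus (235 against 216 FPKM), and Psmd3 and Psmd11 were the only standard regulatory ones. Psmb10 was at 32.0 FPKM in nuclei, 88.3% to 121% of Psmb7 in control.

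Psmb11, the thymus subunit, departed most from the rest. It was at 1.44, 1.42, 1.00 and 1.60 FPKM in control hippocampus, and at 18.5, 18.8 and 22.3 FPKM in control and 21.4, 23.1, 19.97 and 18.8 FPKM in Hdac1 cKO nuclei, 14.5-fold higher in the control means. Every nuclei library was above every hippocampal library, and the genotypes overlapped in each. The annotation gives Psmb11 as a single transcript of 4247 bases without introns (chr14:55244147-55248393, plus strand, mm9), and on the opposite strand the gene Psmb5 lies nearby (chr14:55232644-55236851). Whether these reads are Psmb11 transcripts or other nuclear RNA across this interval was not tested.

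**Figure D5:**
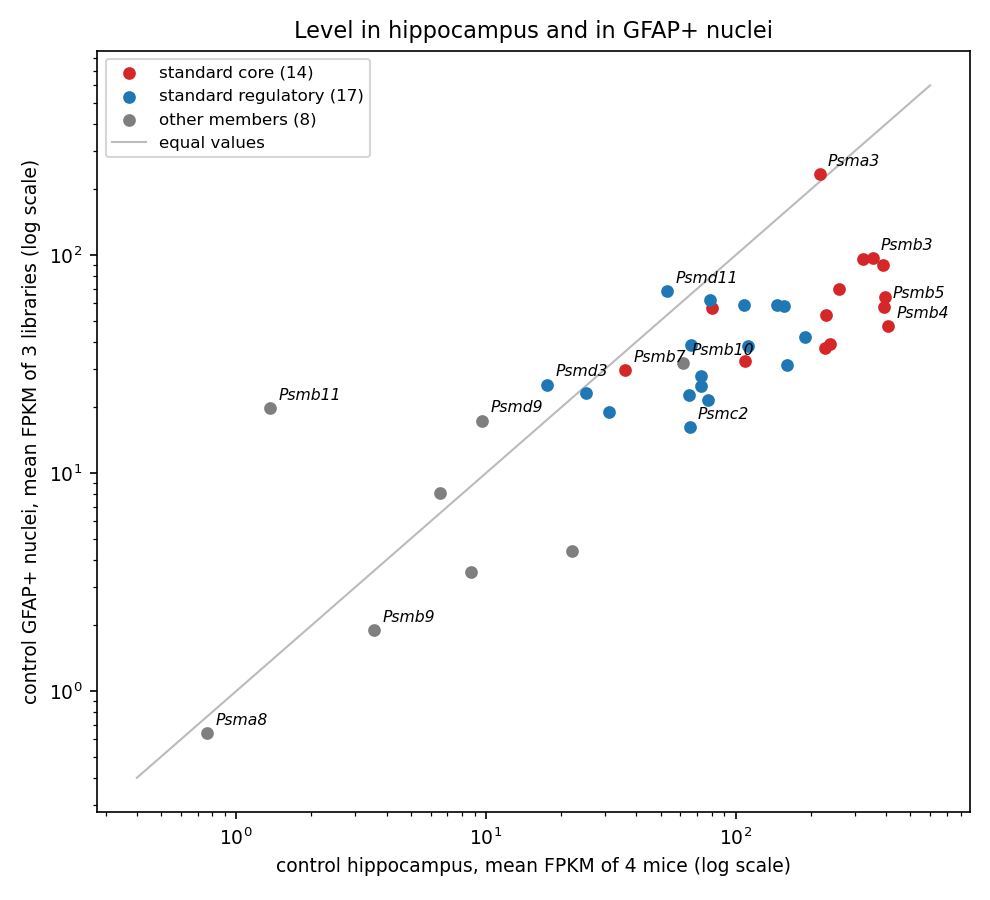
Mean FPKM of the 39 members in control GFAP+ nuclei (3 libraries, vertical axis) against control hippocampus (4 mice, horizontal axis), both on log scales, with colour for core, regulatory and other members and a line of equal values. Most points lie under the line, with Psma3 on it and Psmb11 far above it.

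Genes that work with the proteasome were taken from 6 lists with 33 genes, of activators, assembly factors, partners of the regulatory particle, transcription factors, ubiquitin genes, and shuttles. None passed an adjusted p of 0.05 in limma in any comparison, and the lowest adjusted p were 0.215 in Hdac1 cKO, 0.356 in 5XFAD and 0.191 in compound mice against control, 0.613 in compound against 5XFAD mice, 0.129 in compound against Hdac1 cKO mice, 0.984 in nuclei and 0.444 for the interaction. With an unadjusted p under 0.05, 2 were higher and 3 lower in Hdac1 cKO mice (11.7% of all genes passed in either direction), 1 and 5 in 5XFAD (10.7%), and 2 and 2 in compound mice (10.5%), each against control. Compound mice had 3 higher and 0 lower against 5XFAD (6.61%), and 4 higher and 1 lower of 32 tested against Hdac1 cKO (10.3%). In the nuclei 0 were higher and 1 lower (4.7%), and in the interaction 1 and 0 (8.97%).

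In Hdac1 cKO mice the higher values with an unadjusted p under 0.05 were those of the assembly chaperone Psmg4, 0.39 (SE 0.12, limma adjusted p = 0.215), and the shuttle Ubqln4, 0.36 (SE 0.11, adjusted p = 0.216). The lowest was that of Nfe2l2, which encodes the transcription factor NRF2, -0.52 (SE 0.17, limma adjusted p = 0.253). The activator Psme1 was lower as well, -0.23 (SE 0.10, limma adjusted p = 0.412). In Hdac1 cKO nuclei Psmg4 had the opposite direction, -0.46 (SE 0.20, limma adjusted p = 0.984). In compound against Hdac1 cKO mice, which shares the Hdac1 cKO libraries, Nfe2l2 was at 0.65 (SE 0.21, limma adjusted p = 0.238) and Psmg4 at -0.30 (SE 0.10). The assembly chaperone Psmg3 was at 0.34 (SE 0.10) in compound mice against control and at 0.42 (SE 0.11) against 5XFAD. In 5XFAD the activator Psme4 had a log2 fold change of -0.39 (SE 0.15), the assembly chaperone Psmg1 of -0.38 (SE 0.16) and the polyubiquitin gene Ubb of -0.34 (SE 0.16), while the segregase Vcp was at 0.20 (SE 0.08). Psme4 was also at -0.42 (SE 0.16) in compound mice, against the same controls. The deubiquitinase Uchl5, which binds the regulatory particle, had values of -0.21, -0.28 and -0.25 in Hdac1 cKO, 5XFAD and compound mice, comparisons that share the same 4 control mice. The lid subunit Shfm1, outside the symbol rule, was at -0.28 (SE 0.13) in 5XFAD and at 0.28 (SE 0.12) in compound against 5XFAD mice.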

How the data were processed

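RNA-seq of hippocampus (20 libraries) and of GFAP+ nuclei (7 libraries) was used, 1 library per mouse or sample as labelled. Not analysed here were 6 samples of ChIP-seq and the second control sample of the nuclei. The deposited values are FPKM per gene, which the authors computed with Cufflinks 2.0.0 after TopHat alignment to mm9 (tools and versions credited to the submitters' processing notes, annotation to the methods). The hippocampal protocol was Digital Gene Expression from 3′ ends and that of the nuclei the full-length SMART-Seq, so levels of the 2 sets are not on one scale. Fragment counts are not in these tables, and no count model, counting interval or detection limit was computed. FPKM divides by transcript length, which for 3′ libraries raises short genes but leaves fold changes of a gene between mice unaffected, except through the pseudocount. Relative depth was estimated from the steps between low FPKM values.

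Values were transformed to log2(FPKM + 1), which understates the change of low genes such as Psmb9. Tested genes averaged 0.5 FPKM or more across the compared samples, and the test was done with limma 3.58.1 (R 4.3.3, trend and robust options) on the compared groups only, without covariates, and the interaction on all 4 hippocampal groups. Calls were an adjusted p (Benjamini-Hochberg) under 0.05, or a fold of at least 1.5 with an unadjusted p under 0.05. Two-sided exact permutation tests of mean log2(FPKM + 1) used scipy 1.17.1 in Python 3.11.15. The test scripts were tested on simulated data, modelled on 5XFAD against control with 200 genes changed. An adjusted p under 0.05 in limma recovered 36% of 1.5-fold, 84.5% of 2-fold and 97.5% of 4-fold changes, so many 1.5-fold changes would be missed. Coordinates are those of mm9, and promoter windows are RefSeq sequences of GRCm38.p6.

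Named members were those past either call in any comparison, the cutting and immunoproteasome subunits, the standard core and regulatory subunit with the highest and lowest fold change per comparison, and the 2 highest and 2 lowest in control hippocampus and nuclei. Members outside this rule were named after their values were seen. The members and lists were chosen with earlier results of these data known. Replicate numbers recur between groups but mark different animals. Alternatives were a pseudocount of 0.1, no filter, a filter of 1 FPKM, quantile normalization, median scaling, no trend and robust options, a replicate block, 1 fit of all hippocampal groups, fold changes from mean FPKM, leaving out each library, and, chosen after seeing the data, scaling to equal sums (TPM).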

Additional observations from a re-analysis of the deposited data

Results flagged for a closer look

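Among the members, 7 of 195 combinations of gene and group (3.59%) held 1 library far from the others of its group by Dixon's test, where chance gives about 1 in 20. In control mice Psmd10 was low in control 4 (19.02 FPKM, the nearest at 22.9) and Psmd13 high in control 3 (30.1, the nearest at 23.7). In 5XFAD mice, mouse 3 was high for Psmc2 (63.5, the nearest at 58.6) and Psmd10 (27.5, the nearest at 19.7). In compound mice, mouse 3 was high for Psmc3 (211, the nearest at 184) and low for Psmc6 (57.4, the nearest at 62.0), and mouse 1 was high for Psmd5 (9.45, the nearest at 6.61).

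The effect of Hdac1 loss differed between mice with and without the 5XFAD transgenes at an unadjusted p under 0.05 for 3 of the 39 members, against 8.97% of all genes, so the share of members was not above the background. The differences in log2 fold change were 0.34 for Psma4 (SE 0.14, limma adjusted p = 0.505), 0.32 for Psmc6 (SE 0.15, adjusted p = 0.545) and -0.50 for Psmd3 (SE 0.20, adjusted p = 0.470), and none passed the adjustment over all genes.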

How the results depend on the processing

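The count of members with an adjusted p under 0.05 in limma was 0 under every alternative run in the comparisons other than 5XFAD against control. There it was 1, Psmb9, with a pseudocount of 0.1, the filter at 1 FPKM, quantile normalization, median scaling and TPM scaling, and 0 to 1 when leaving out a library. The looser call in Hdac1 cKO against control took 0 members with a pseudocount of 0.1, no filter, quantile normalization, no trend and robust options, the replicate block, TPM scaling and the 4-group fit, and 0 to 1 when leaving out a library. In compound against control it took 1 under the block and 0 to 1 when leaving out a library (Psmb9 at 0.95 both under the block and without compound 5), and in the interaction 1, Psmd3, under the block (-0.64) and TPM scaling (-0.64) and 0 to 1 when leaving out a library (Psmd3 at -0.59 without control 3 and -0.60 without 5XFAD 3, and Psma8, not Psmd3, without control 1, at 0.80). In the nuclei it took 0 to 1 when leaving out a library, Psmc5 without control 1 (0.59) and Psma5 without control 4 (-0.75) or Hdac1 cKO 4 (-0.68), while Psmc5 was 0.25 without control 4 and Psma5 -0.33 without Hdac1 cKO 2. The regulatory median in 5XFAD against control was 0.00503 after quantile normalization and 0.0296 after TPM scaling, and in compound against 5XFAD -0.0399 and -0.0290. TPM scaling also moved the median of all genes, to 0.06 and -0.07, and beside these the regulatory median was still lower in 5XFAD and still higher in compound mice. In the interaction it was 0.00597 after quantile normalization, 0.0111 under the block and -0.0500 after TPM scaling, where the core median was 0.0379 and the median of all genes was -0.11. That shift of all genes also enters the Psmd3 value of -0.64 under TPM scaling, which met the looser call. When leaving out a library, Psmb4 ranged from -0.00366 to 0.0640 in 5XFAD against control and from -0.0613 to 0.00997 in compound against 5XFAD, Psmb10 from -0.0626 to 0.0372 in compound against Hdac1 cKO, and Psmc6 from -0.469 to 0.0830 in the nuclei. Causes of these changes were not tested. Under settings other than leaving out a library, the other 239 summary values stayed near the main result, and their sign was not part of this check. A count stayed equal or within 1.5-fold, and a median within the SD between mice of the mean subunit level. Of single members, 380 values kept their direction and side of an unadjusted limma p of 0.05. Another 17 crossed to an unadjusted p under 0.05, and 35 lost it. Mice that share a replicate number did not deviate together (correlations -0.11 to 0.08 over 25 pairs), so the number pairs no animals. The block also dropped mice whose number was missing from another group, compound 5 and Hdac1 cKO 5 in the comparisons with control, and leaving out either mouse alone changed the looser call there in the same way. The replicate block changed no other count of members called. Fragment counts are unknown, so no detection limit was computed for the low members Psma8 and Psmb9.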
